A study of Homo sapiens with 12 samples.

Results

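Immune checkpoint ligands are molecules on tumour cells that bind receptors on lymphocytes and phagocytes and set how strongly those cells respond. The genes described here were chosen by name and are 9 that encode such molecules and 1 that encodes an enzyme acting in the same setting: CD274, PDCD1LG2, CD276, CD47, NT5E, PVR, NECTIN2, LGALS9, ICAM1 and MICA. They are 10 of the 56609 gene symbols in the deposited count table, and 9 of them were among the 21698 genes that passed the filter on low counts and entered the tests. PDCD1LG2 did not pass, and its values are given as a description. The cells are A375, an established human melanoma line, and the labels name no added immune cells or cytokines. One set of cells was wild type and the other was a MAPKAPK2 knockout made with CRISPR/Cas9. MAPKAPK2 (MK2) is a kinase downstream of p38 that acts on RNA-binding proteins controlling the decay of inflammatory mRNAs. Both genotypes received either the DMSO vehicle or 500 nM JQ1 for 48 h, and each of the 4 groups has 3 libraries. JQ1 displaces the BET proteins from acetylated chromatin. The sample titles of the DMSO groups read untreated, while the treatment field gives DMSO. Whether the knockout is 1 clone or a pool is not given in the sources used here, and nothing states that the 3 replicates came from separate cultures, so the p-values measure only the spread between these libraries. The study asked how loss of MAPKAPK2 affects resistance to BET inhibition.

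The ligands fall into several receptor systems. PD-L1 (CD274) and PD-L2 (PDCD1LG2) bind PD-1 on T cells, B7-H3 (CD276) is a B7 family member that restrains T cells, and galectin-9 (LGALS9) is a ligand of TIM-3. PVR and NECTIN2 bind the inhibitory receptor TIGIT and the activating receptor CD226, and PVR also binds CD96. CD47 binds SIRPA on macrophages and blocks engulfment. CD73 (NT5E) is not a receptor ligand but an enzyme that makes extracellular adenosine from AMP. The remaining pair favours an immune attack: ICAM1 binds the integrin LFA-1 and holds lymphocytes to their target, and MICA is a stress ligand of the activating receptor NKG2D. Inflammatory cytokines induce several of these genes, ICAM1 and CD274 in particular, through NF-kB and STAT factors.

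JQ1 moved these transcripts in different directions. ICAM1 fell to 43.2% ± 3.95 (SD, n = 3) of its DMSO mean in wild-type cells and to 22.5% ± 2.96 (SD, n = 3) in knockout cells. MICA rose 1.86-fold in wild-type and 1.84-fold in knockout cells, and NT5E rose 1.47-fold and 1.51-fold. CD276 rose 1.70-fold and 1.41-fold. CD47 and PVR were higher under JQ1 in knockout cells, 1.24-fold and 1.33-fold, and did not pass in wild-type cells. CD274, which encodes PD-L1, had 16 to 52 counts per library and passed in none of the comparisons. ICAM1 was lower in knockout than in wild-type cells, 1.44-fold in DMSO and 2.75-fold in JQ1.

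Levels between libraries are given as CPM, counts scaled to a common library size, and levels between genes as CPM per kilobase of merged exon. In wild-type DMSO libraries NT5E had the highest level, at 36.4 ± 0.619 CPM per kb (SD, n = 3), followed by ICAM1 at 14.7 ± 0.331, CD276 at 11.5 ± 1.42, PVR at 9.71 ± 0.640 and CD47 at 6.91 ± 0.161. NECTIN2 stood at 4.84 ± 0.128 and MICA at 2.90 ± 0.131. Far below these were CD274 at 0.341 ± 0.0382, PDCD1LG2 at 0.101 ± 0.0192 and LGALS9 at 0.0511 ± 0.0148 CPM per kb. By this measure ICAM1 was the second of the 10 in wild-type DMSO libraries and the seventh in knockout JQ1 libraries, where its level was 2.30 ± 0.302 CPM per kb (SD, n = 3). NT5E remained the first in all 4 groups.

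**Figure D1:**
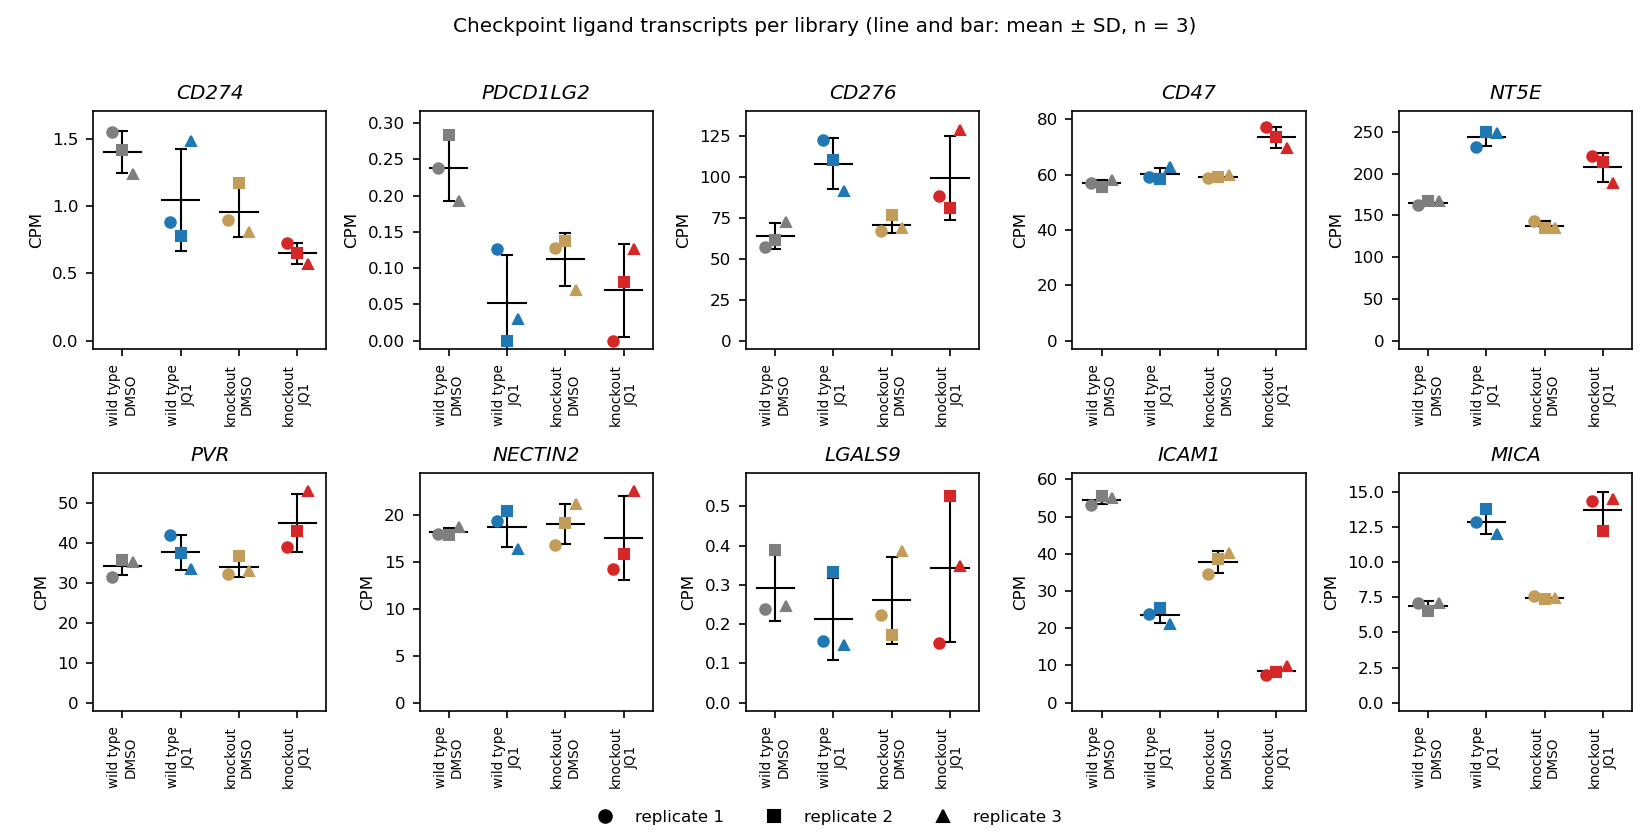
Level of each of the 10 genes in every library, in CPM over TMM-scaled library sizes on a linear axis, by group (wild type or MAPKAPK2 knockout, DMSO or 500 nM JQ1); the marker shape gives the replicate, the line the mean and the bar the SD (n = 3). ICAM1 steps down over 4 groups that do not overlap, from 54.5 to 8.51 CPM, MICA and NT5E are higher in both JQ1 groups, and knockout JQ1 replicate 3 is the highest library for CD276, PVR and NECTIN2.

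The libraries held 25316565 to 34594025 estimated counts. MAPKAPK2 transcripts were at 87.9 to 92.1 CPM in wild-type DMSO, 112 to 120 CPM in wild-type JQ1, 11.1 to 13.2 CPM in knockout DMSO and 12.6 to 15.7 CPM in knockout JQ1 libraries, so each library matched its genotype label. No 2 libraries were identical, and knockout JQ1 replicate 3 stood apart: its counts differed from those of its replicates by a chi-square per degree of freedom of 26.1 and 27.5, against 3.35 to 7.64 for all other replicate pairs. The 7 melanoma markers summed to 460 to 766 CPM, most of it SOX10 (389 to 687 CPM). MITF and S100B were also measured in every library, whereas the pigment cell markers PMEL and MLANA were at no more than 1.45 and 1.02 CPM and TYR and DCT under 1 CPM in every library. Markers of other cell types were low: 8 leukocyte markers summed to 1.85 to 4.28 CPM (6 under 1 CPM in every library, of which 1 was at 0), 4 keratinocyte markers to 4.0 to 7.12 CPM, 4 fibroblast markers to 8.10 to 13.2 CPM and 3 endothelial markers to 0.812 to 2.35 CPM. In bulk RNA, fewer cells carrying a transcript and less of it per cell cannot be told apart.

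ICAM1 lies on chromosome 19 (chr19:10270835-10286615, plus strand, GRCh38, GENCODE v29). It was measured at 53.1, 55.4 and 55.0 CPM in wild-type DMSO libraries and at 23.9, 25.4 and 21.2 CPM in wild-type JQ1 libraries. In knockout cells it was at 34.5, 38.6 and 40.2 CPM in DMSO and at 7.58, 8.20 and 9.75 CPM in JQ1. The order was wild-type DMSO, knockout DMSO, wild-type JQ1 and knockout JQ1, and no 2 neighbouring groups overlapped. The knockout JQ1 mean was 15.6% ± 2.05 (SD, n = 3) of the wild-type DMSO mean. These values rest on 199 to 2000 counts per library, and the antisense gene AC011511.5, which overlaps ICAM1, had at most 39. The library kit keeps strand, but whether the counting used it is not given in the sources used here.

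The JQ1 response of ICAM1 was -1.21 ± 0.09 (SE) on the log2 scale in wild-type cells (edgeR quasi-likelihood test, adjusted p = 1.76e-07) and -2.14 ± 0.10 in knockout cells (adjusted p = 1.26e-09). Its difference between knockout and wild type was -0.53 ± 0.09 in DMSO (adjusted p = 0.00146) and -1.46 ± 0.10 in JQ1 (adjusted p = 3.25e-07). The 2 JQ1 responses themselves differed, by -0.93 on the log2 scale (95% interval -1.22 to -0.64, adjusted p = 0.0149), and ICAM1 was the one member called for that difference where 0.134% of all genes tested were called (0.0323% higher and 0.101% lower). That call was lost when wild-type JQ1 replicate 1 (adjusted p = 0.0579), wild-type JQ1 replicate 2 (adjusted p = 0.0569) or knockout DMSO replicate 3 (adjusted p = 0.0532) was left out, while the difference stayed between -1.05 and -0.85 when any one of the 12 libraries was left out. The other 4 calls of ICAM1 held in each of these 12 refits.

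The promoters of ICAM1 and CD274 are shown because these were the 2 of the 9 members with an entry in the RefSeq promoter table whose 250 bases before the RefSeq start held any of the motifs searched. The sequences are from RefSeq (GRCh38.p14), plus strand, 5′ to 3′, before the start of the RefSeq entry, which differs from the GENCODE gene start used for the positions above and below, at chr19:10270870-10271119 for ICAM1 and chr9:5450292-5450541 for CD274. Capitals mark the motif matches.
ICAM1: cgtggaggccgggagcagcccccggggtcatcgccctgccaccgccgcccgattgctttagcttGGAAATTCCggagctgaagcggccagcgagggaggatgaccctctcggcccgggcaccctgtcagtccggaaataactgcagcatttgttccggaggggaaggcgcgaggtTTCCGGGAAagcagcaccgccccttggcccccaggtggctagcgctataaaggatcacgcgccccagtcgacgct
CD274: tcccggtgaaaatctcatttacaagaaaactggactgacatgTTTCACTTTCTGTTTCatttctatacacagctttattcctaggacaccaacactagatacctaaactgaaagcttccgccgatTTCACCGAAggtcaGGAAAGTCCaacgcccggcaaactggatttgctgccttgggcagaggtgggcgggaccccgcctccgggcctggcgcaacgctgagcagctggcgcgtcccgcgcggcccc
The ICAM1 window held GGAANNTCC, a form bound by NF-kB factors, at -186 to -178 from the start (matched as GGAAATTCC), and TTCNNNGAA, the palindrome of STAT factors, at -75 to -67 (TTCCGGGAA). The CD274 window held GGAANNTCC at -111 to -103 (GGAAAGTCC), TTCNNNGAA at -125 to -117 (TTCACCGAA) and the interferon response motif, a pair of GAAA runs with 2 bases between them, on the minus strand at -208 to -199 and again at -202 to -193, so that these 2 matches overlap. Both strands of 27305 promoters of the same length were searched: GGAANNTCC was found in 3.88%, TTCNNNGAA in 6.78% and the interferon response motif in 3.07% of them, and GGAANNTCC together with TTCNNNGAA in 89 promoters (0.326%). The AP-1 form TGANTCA (6.6% of promoters), the E-box CACGTG (6.49%) and the kappaB consensus (5.05%), whose matches can overlap those of GGAANNTCC, were not found in these letters for any member. The promoter of PDCD1LG2 was not analysed here. A match describes the letters only, and binding was not measured.

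CD274 encodes PD-L1 and lies on chromosome 9 (chr9:5450503-5470566, plus strand). Its counts were 52, 40 and 45 in wild-type DMSO libraries, 28, 21 and 50 in wild-type JQ1, 28, 34 and 23 in knockout DMSO and 19, 16 and 18 in knockout JQ1. In the same order, the group means were 1.40 ± 0.157, 1.05 ± 0.378, 0.958 ± 0.187 and 0.647 ± 0.0768 CPM (SD, n = 3). The 3 knockout JQ1 libraries were below all others, and wild-type JQ1 replicate 3, at 1.48 CPM, was within the range of the wild-type DMSO libraries while its replicates were at 0.879 and 0.779 CPM. No comparison passed the test. The JQ1 responses were -0.40 ± 0.25 (SE; adjusted p = 0.238) in wild-type and -0.57 ± 0.28 (adjusted p = 0.14) in knockout cells, and the knockout differences were -0.55 ± 0.25 in DMSO (unadjusted p = 0.0481, adjusted p = 0.249) and -0.71 ± 0.28 in JQ1 (unadjusted p = 0.0226, adjusted p = 0.149). Without wild-type JQ1 replicate 3 the wild-type response was -0.75 and passed (adjusted p = 0.0345). The 95% intervals of the JQ1 response, -0.94 to 0.13 in wild-type and -1.17 to 0.04 in knockout cells, show the limit that counts of this size set.

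PDCD1LG2 encodes PD-L2, the second PD-1 ligand, and starts 40004 bases downstream of the end of CD274 (chr9:5510570-5571254, plus strand). It had 8, 8 and 7 counts in wild-type DMSO libraries, 4, 0 and 1 in wild-type JQ1, 4, 4 and 2 in knockout DMSO and 0, 2 and 4 in knockout JQ1. A count of 0 allows up to 3 counts, or 0.111 CPM in wild-type JQ1 replicate 2 and 0.114 CPM in knockout JQ1 replicate 1. Each wild-type DMSO library was above every other library for this gene, as 0.192 to 0.283 CPM compare with at most 0.137 CPM elsewhere. With no filter on low counts, which enlarged the test to 42381 genes, its JQ1 response in wild-type cells was -2.05 ± 0.82 (SE) and did not pass (unadjusted p = 0.013, adjusted p = 0.0699). Both genes of the PD-1 ligand pair had their highest mean in wild-type DMSO libraries.

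CD276 encodes B7-H3 (chr15:73683966-73714518, plus strand) and rose under JQ1. It was at 57.1, 61.5 and 72.4 CPM in wild-type DMSO libraries and at 122, 110 and 91.6 CPM in wild-type JQ1 libraries, groups that did not overlap. In knockout cells it was at 66.8, 76.5 and 69.1 CPM in DMSO and at 88.5, 81.1 and 128 CPM in JQ1. The response was 0.76 ± 0.15 (SE; adjusted p = 0.00115) in wild-type and 0.49 ± 0.15 (adjusted p = 0.019) in knockout cells. Replicate 3 of the knockout JQ1 group, the library that stood apart, was the highest of all 12. Without it the knockout response was 0.26 and did not pass (adjusted p = 0.0828), nor did it pass without knockout DMSO replicate 1 (adjusted p = 0.0589), without knockout DMSO replicate 3 (adjusted p = 0.0522) or when scaled by library totals (adjusted p = 0.0504). Knockout and wild type differed by 0.15 ± 0.15 in DMSO and -0.12 ± 0.15 in JQ1, and neither passed.

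LGALS9 encodes galectin-9 (chr17:27629798-27649560, plus strand) and was barely measured. It had 4 to 13 counts per library, with overlap between all groups, and the near-identical copies LGALS9B and LGALS9C had 0 counts in every library. Its fitted JQ1 responses were -0.46 ± 0.52 (SE) in wild-type and 0.39 ± 0.50 in knockout cells. A difference was not detectable at this depth, the interval in knockout cells alone running from -0.69 to 1.47.

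PVR and NECTIN2, the 2 ligands of TIGIT and CD226, lie on chromosome 19 (chr19:44643798-44663583 and chr19:44846175-44889228, plus strand). PVR was at 31.6, 35.7 and 35.2 CPM in wild-type DMSO libraries, 42.2, 37.6 and 33.5 in wild-type JQ1, 32.3, 36.9 and 33.0 in knockout DMSO and 39.0, 43.1 and 53.2 in knockout JQ1. The 3 knockout JQ1 libraries were above the knockout DMSO libraries, whereas the wild-type groups overlapped. PVR rose under JQ1 in knockout cells, by 0.41 ± 0.11 on the log2 scale (adjusted p = 0.0105), and the response in wild-type cells, 0.14 ± 0.11, did not pass (adjusted p = 0.36). The 2 responses were not shown to differ (0.26, 95% interval -0.07 to 0.60, adjusted p = 0.68). Without knockout JQ1 replicate 3 the knockout response was 0.27 and still passed (adjusted p = 0.0383).

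NECTIN2 passed in none of the comparisons. It was at 17.9, 17.8 and 18.7 CPM in wild-type DMSO libraries, 19.3, 20.4 and 16.4 in wild-type JQ1, 16.8, 19.2 and 21.1 in knockout DMSO and 14.2, 15.8 and 22.6 in knockout JQ1, and each group overlapped its neighbours in level. The lowest and the highest of these 12 values are both knockout JQ1 libraries, the highest being replicate 3. Without that replicate the response in knockout cells changed from -0.11 ± 0.15 (adjusted p = 0.599) to -0.34 ± 0.11 and passed as lower (adjusted p = 0.0263). In that refit PVR was higher and NECTIN2 lower under JQ1.

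CD47, the ligand that SIRPA reads on macrophages, lies on chromosome 3 (chr3:108043094-108091862, minus strand). It was at 56.9, 55.5 and 58.2 CPM in wild-type DMSO libraries, 59.0, 58.3 and 63.0 in wild-type JQ1, 58.8, 59.2 and 59.9 in knockout DMSO and 77.1, 73.6 and 69.8 in knockout JQ1. All 3 knockout JQ1 libraries were above the other 9, which lay between 55.5 and 63.0 CPM. CD47 rose under JQ1 in knockout cells by 0.31 ± 0.06 on the log2 scale (adjusted p = 0.000652), and within JQ1 it was higher in the knockout by 0.29 ± 0.06 (adjusted p = 0.00464). The latter call was lost when only the 2 groups compared were fitted (adjusted p = 0.065). In wild-type cells the JQ1 response was 0.08 ± 0.06 (adjusted p = 0.319). The difference of the 2 responses, 0.23 with a 95% interval of 0.06 to 0.40, had an unadjusted p of 0.0129 and did not pass after adjustment (adjusted p = 0.448).

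NT5E, which encodes CD73, lies on chromosome 6 (chr6:85449584-85495791, plus strand) and was the most deeply counted member, with 3842 to 8384 counts per library. It was at 162, 167 and 167 CPM in wild-type DMSO libraries and at 232, 250 and 248 CPM in wild-type JQ1 libraries. In knockout cells it was at 143, 134 and 135 CPM in DMSO and at 221, 214 and 188 CPM in JQ1. No 2 groups overlapped, and the order was wild-type JQ1, knockout JQ1, wild-type DMSO and knockout DMSO. JQ1 raised NT5E by 0.56 ± 0.06 (SE; adjusted p = 7.71e-06) in wild-type and 0.59 ± 0.06 (adjusted p = 3.86e-06) in knockout cells, responses that differed by 0.04 (95% interval -0.15 to 0.22). The knockout was lower by a smaller amount, -0.26 ± 0.06 in DMSO (adjusted p = 0.0154) and -0.23 ± 0.06 in JQ1 (adjusted p = 0.0326). These 2 calls are near the threshold: with the factors inferred from the ratio of the authors' 2 deposited tables the values were -0.18 (adjusted p = 0.0672) and -0.19 (adjusted p = 0.0551) for DMSO and JQ1. The DMSO call was also lost without wild-type DMSO replicate 1, 2 or 3 (adjusted p = 0.0611, 0.0904 and 0.0846) and without knockout DMSO replicate 2 or 3 (adjusted p = 0.0993 and 0.094). The JQ1 call was lost without wild-type DMSO replicate 1, 2 or 3 (adjusted p = 0.0683, 0.0718 and 0.0698), wild-type JQ1 replicate 2 or 3 (adjusted p = 0.13 and 0.105) and knockout DMSO replicate 1, 2 or 3 (adjusted p = 0.0514, 0.0613 and 0.065).

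MICA lies in the major histocompatibility complex on chromosome 6 (chr6:31399784-31415315, plus strand). It was at 7.09, 6.55 and 7.09 CPM in wild-type DMSO libraries, 12.9, 13.8 and 11.98 in wild-type JQ1, 7.57, 7.35 and 7.44 in knockout DMSO and 14.4, 12.3 and 14.5 in knockout JQ1. Every JQ1 library was above every DMSO library, and the 2 JQ1 groups overlapped. The JQ1 response was 0.89 ± 0.10 (SE; adjusted p = 5.92e-06) in wild-type and 0.88 ± 0.10 (adjusted p = 5.96e-06) in knockout cells, and the difference between them was -0.01 (95% interval -0.30 to 0.28). Knockout and wild type differed by 0.11 ± 0.10 in DMSO (adjusted p = 0.627) and by 0.09 ± 0.09 in JQ1 (adjusted p = 0.649). MICA had 185 to 459 counts per library, and HCP5, a gene on the same strand that overlaps it, had 11 to 99, so a share of reads could have been assigned to either.

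**Figure D2:**
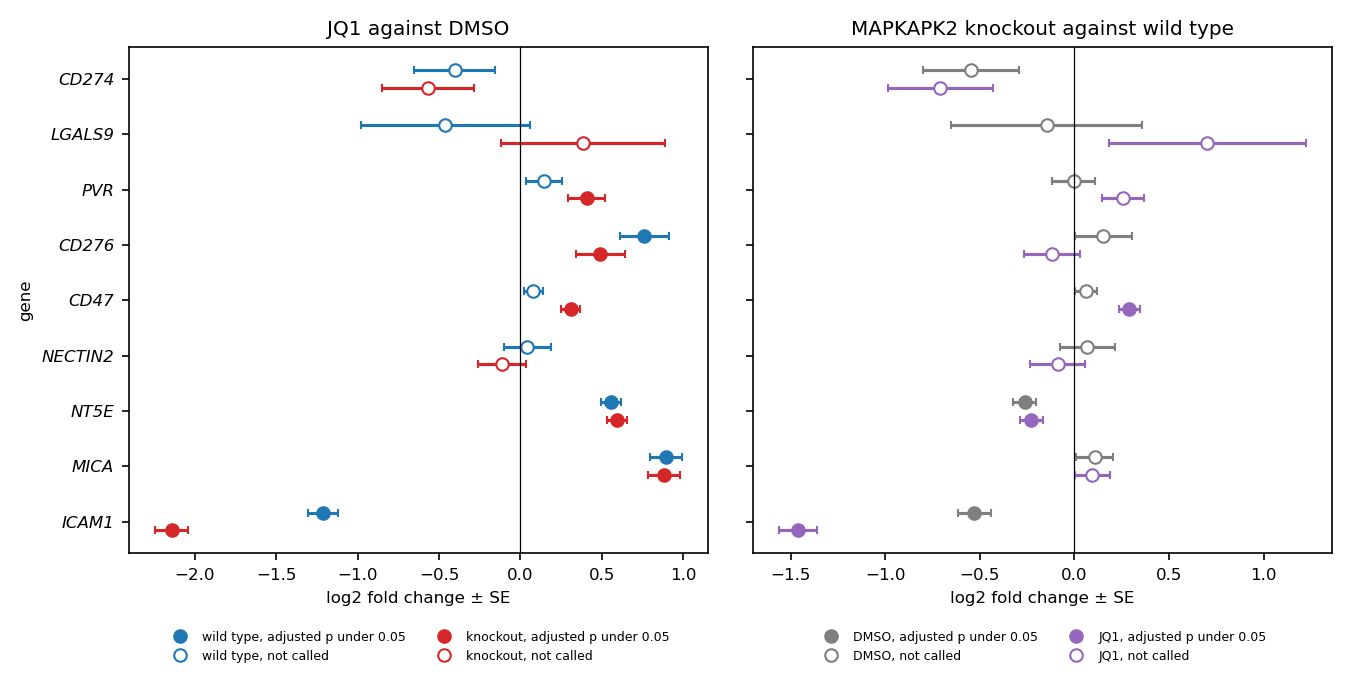
Log2 fold change ± SE (edgeR, 12 libraries in one fit) of the 9 tested members for JQ1 against DMSO in each genotype on the left and for knockout against wild type in each treatment on the right, with filled points for adjusted p under 0.05. ICAM1 is the one filled point left of 0 in both genotypes under JQ1, at -1.21 and -2.14, while MICA, NT5E and CD276 are filled and right of 0 in both.

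Counted together, 4 of the 9 tested members passed for JQ1 in wild-type cells (3 higher, 1 lower), where 33.1% of all genes tested did (16.9% higher, 16.2% lower). In knockout cells 6 passed (5 higher, 1 lower), against 34.4% of all genes (16.7% higher, 17.8% lower). Knockout against wild type gave 2 members in DMSO, both lower, against 7.92% of all genes (3.47% higher, 4.44% lower), and 3 in JQ1 (1 higher, 2 lower), against 8.57% (3.01% higher, 5.56% lower). The median log2 fold change of the members was 0.08 and 0.39 for JQ1 in wild-type and knockout cells, where the medians of all genes were -0.03 and -0.00. For the knockout the members' medians were -0.00 in DMSO and -0.09 in JQ1, with -0.00 for all genes in both. With 9 genes, these shares are a description of the members.

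**Figure D3:**
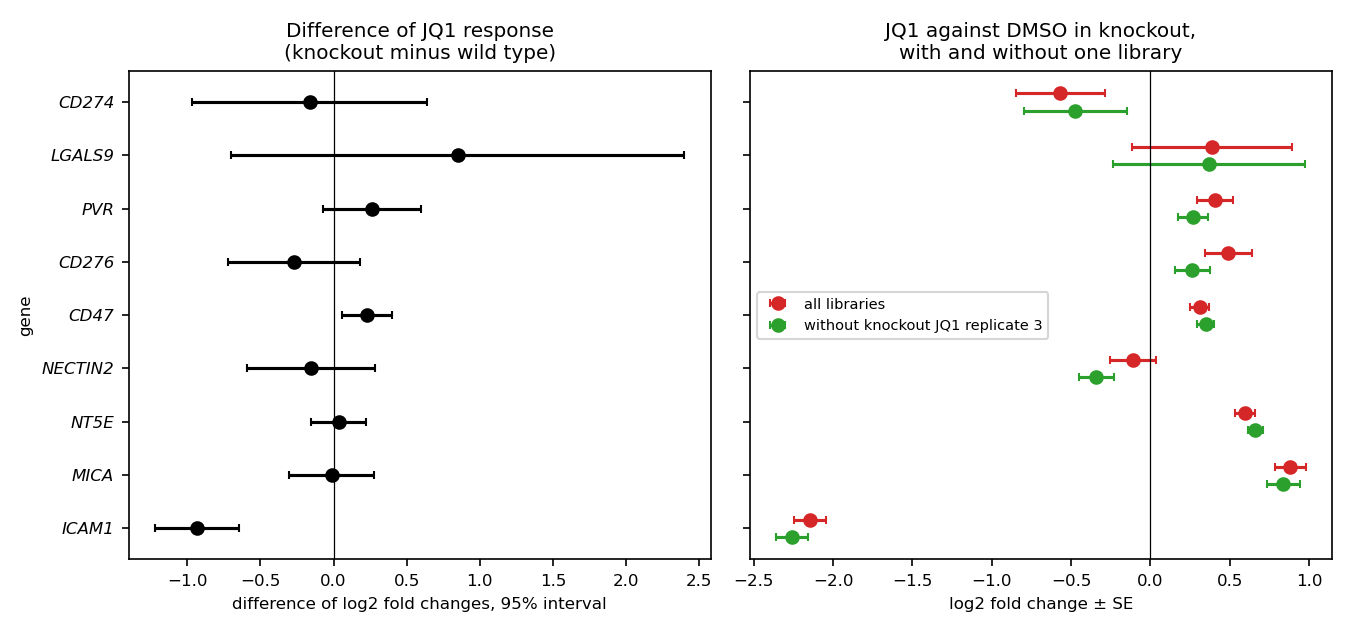
Left, difference of the JQ1 response between genotypes (knockout minus wild type, log2) with its 95% interval for the 9 tested members; right, JQ1 response in knockout cells ± SE with all libraries and without knockout JQ1 replicate 3, the library that stood apart. The interval of ICAM1, -1.22 to -0.64, is the farthest from 0, and without that library CD276 moves from 0.49 to 0.26 and NECTIN2 from -0.11 to -0.34.

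Other ligands that tumour cells can show to immune cells did not share one direction. Of 22 further ligands 15 were tested, and JQ1 raised 5 and lowered 7 in wild-type cells and raised 4 and lowered 7 in knockout cells, with medians of -0.27 and -0.38. Over all genes tested, against which this and the following lists are read, JQ1 raised 16.9% and lowered 16.2% in wild-type cells and raised 16.7% and lowered 17.8% in knockout cells, with medians of -0.03 and -0.00. LGALS1, which encodes the T-cell-suppressing galectin-1, rose from 381 ± 13.1 to 807 ± 27.8 CPM (SD, n = 3) in wild-type cells and from 383 ± 10.3 to 759 ± 29.4 CPM in knockout cells, log2 changes of 1.08 and 0.99 (adjusted p = 1.55e-09 and 2.39e-09). NCR3LG1, which encodes B7-H6, the ligand of the natural killer receptor NKp30, fell by 0.94 and 1.23 on the log2 scale (adjusted p = 6.34e-06 and 6.85e-07). TNFRSF14, the receptor HVEM that BTLA binds, fell by 2.08 and 2.18 (adjusted p = 1.93e-05 and 5.21e-06), from 1.82 and 2.92 CPM to 0.425 and 0.636 CPM. CD40, a costimulatory receptor of the TNF receptor family, went from 4.88 ± 0.393 to 2.00 ± 0.222 CPM with JQ1 in wild-type cells and from 1.58 ± 0.443 to 0.435 ± 0.132 CPM (SD, n = 3) in knockout cells. Its knockout differences were -1.63 in DMSO and -2.21 in JQ1 (adjusted p = 0.000115 and 7.61e-05). CD70, the ligand of CD27, was instead higher in the knockout, by 0.75 in DMSO and 0.48 in JQ1 (adjusted p = 5.92e-05 and 0.0025).

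Relatives of the nectins, NKG2D ligands and adhesion molecules gave 12 tested genes of 17, of which JQ1 raised 4 and lowered 1 in wild-type cells and raised 4 and lowered 3 in knockout cells. CADM1, a nectin-like adhesion molecule, rose by 0.60 in both genotypes (adjusted p = 1.09e-05 and 8.21e-06), and ALCAM, the ligand of CD6 on T cells, by 0.52 and 0.65 (adjusted p = 0.000644 and 8.78e-05). RAET1E, another NKG2D ligand, went the other way from MICA: it fell by 1.54 and 1.10 (adjusted p = 0.000377 and 0.0108), with group means of 1.47 and 0.777 CPM in DMSO and 0.508 and 0.354 CPM in JQ1. RAET1E had 11 to 19 counts per library in wild-type JQ1 and 7 to 15 in knockout JQ1. The other NKG2D ligands tested are named for completeness. ULBP2 and ULBP3 fell by 0.40 and 0.46 under JQ1 in knockout cells (adjusted p = 0.0217 and 0.0464) and did not pass in wild-type cells. MICB (0.27 in wild-type and 0.19 in knockout cells) and ULBP1 (-0.30 and -0.19) passed in neither genotype. NECTIN3 rose in knockout cells by 0.44 (adjusted p = 0.00129) and in wild-type cells by 0.24 (adjusted p = 0.0461). The wild-type call was lost in 10 of 20 alternatives.

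Genes of interferon and NF-kB signalling, the pathways known to induce ICAM1 and CD274, were all measured, 22 of 22. JQ1 raised 10 and lowered 1 in wild-type cells and raised 7 and lowered 2 in knockout cells, with medians of 0.21 and 0.09, where 16.9% and 16.7% of all genes were higher and 16.2% and 17.8% lower. Those that rose include JAK1 (0.53 and 0.43, adjusted p = 1.56e-06 and 8.51e-06), STAT3 (0.45 and 0.33, adjusted p = 9.96e-05 and 0.00107) and the TNF receptor TNFRSF1A (0.60 and 0.47, adjusted p = 1.69e-05 and 0.000125). MYD88, an adaptor of Toll-like receptors named because it was the 1 gene lowered in wild-type cells, fell by 0.56 and 0.72 (adjusted p = 0.00156 and 0.000168). The NF-kB genes NFKB1 (-0.12 and -0.13), RELB (-0.16 and -0.06) and NFKBIA (-0.15 and 0.11), named after their values were seen, did not pass. RELA, of the same family, went up with JQ1 instead. Its means were 38.8 ± 2.71 and 49.1 ± 3.24 CPM (SD, n = 3) in wild-type DMSO and JQ1 libraries. In knockout DMSO and JQ1 libraries they were 40.5 ± 4.67 and 45.3 ± 3.92 CPM. NFKB2 went from 55.0 to 52.1 CPM with JQ1 in wild-type cells and from 47.5 to 47.4 CPM in knockout cells. Over all genes tested, 3.47% were higher and 4.44% lower in knockout than in wild-type cells in DMSO, and 3.01% and 5.56% in JQ1. Of the 22, 0 were lower in the knockout, and 4 were higher in DMSO and 2 in JQ1. Among these, STAT3 rose by 0.40 in DMSO (adjusted p = 0.00138), and IRF2, a repressor of interferon-induced genes, by 0.44 (adjusted p = 0.000532).

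**Figure D4:**
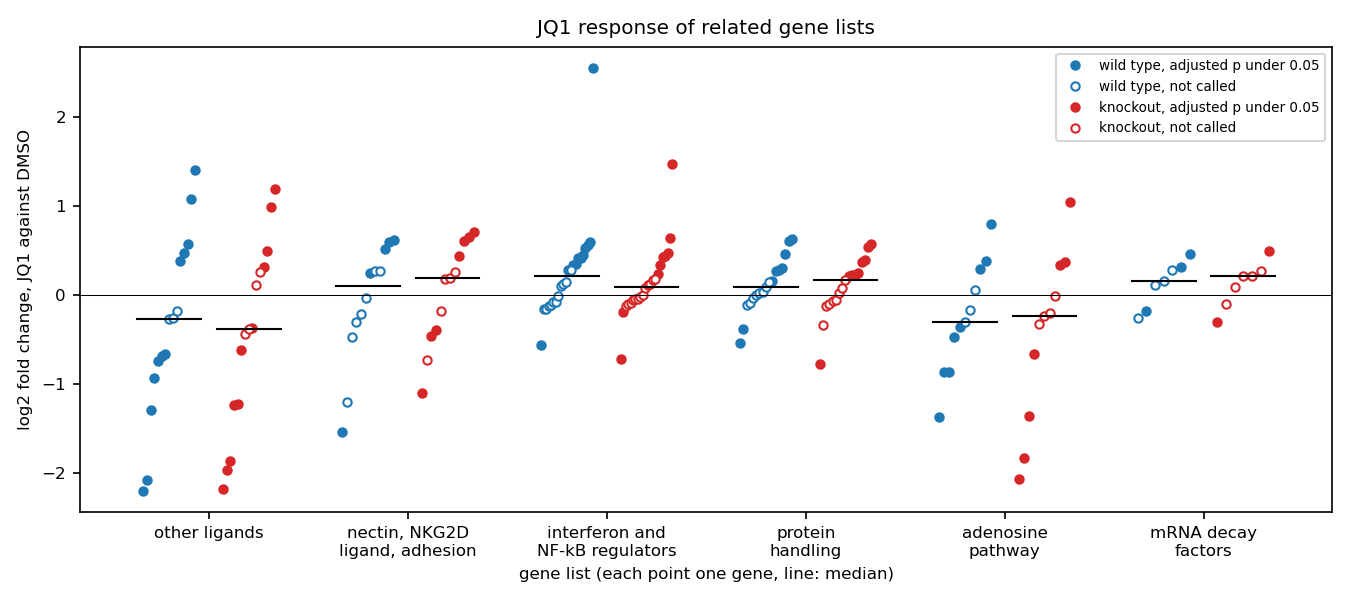
Log2 fold change for JQ1 against DMSO of every tested gene in the 6 related lists, in wild-type (left of each pair) and knockout cells (right), with filled points for adjusted p under 0.05 and a line at the median. The interferon and NF-kB list holds 10 filled points above 0 and 1 below in wild-type cells, and the list of other ligands spreads on both sides of 0 with medians of -0.27 and -0.38.

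Proteins that control how long PD-L1 stays on the cell surface, or that process CD47 and MICA, were tested as 17 genes. JQ1 raised 7 and lowered 2 in wild-type cells and raised 8 and lowered 1 in knockout cells. GSK3B, a kinase that marks PD-L1 for degradation, fell by 0.54 and 0.78 (adjusted p = 1.47e-06 and 3.1e-08), from 381 ± 4.94 to 262 ± 5.96 CPM in wild-type and from 477 ± 15.7 to 278 ± 14.3 CPM (SD, n = 3) in knockout cells. STUB1, a ubiquitin ligase of PD-L1, rose by 0.63 and 0.57 (adjusted p = 3.04e-05 and 6.37e-05), and CDK5 by 0.46 and 0.39 (adjusted p = 7.16e-05 and 0.000298). CMTM6, which keeps PD-L1 at the surface, rose by 0.37 in knockout cells (adjusted p = 0.00013) and by 0.26 in wild-type cells (adjusted p = 0.00211, lost at 0.0861 when scaled by library totals). Protein levels were not measured.

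Around CD73, 11 of 17 genes of adenosine production, transport, breakdown and sensing were tested. JQ1 raised 3 and lowered 5 in wild-type cells and raised 3 and lowered 4 in knockout cells. ENPP1, an ectoenzyme that makes AMP, rose by 0.80 and 1.05 (adjusted p = 0.000113 and 1.18e-05), from 5.66 to 9.83 CPM and from 4.19 to 8.68 CPM. ADA, the deaminase that removes adenosine, fell by 0.87 and 1.36 (adjusted p = 4.37e-06 and 4.9e-08), and PNP, which acts after it, rose by 0.38 and 0.34 (adjusted p = 9.74e-05 and 0.00023). ADORA1, an adenosine receptor, went from 4.24 ± 0.425 to 2.32 ± 0.0852 CPM with JQ1 in wild-type cells and from 2.42 ± 0.0830 to 0.582 ± 0.144 CPM (SD, n = 3) in knockout cells. The difference of its JQ1 responses was -1.20 (95% interval -1.72 to -0.68, adjusted p = 0.0874).

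Among 7 regulators of mRNA decay, the kind of protein on which MAPKAPK2 acts, JQ1 raised 2 and lowered 1 in wild-type cells and raised 1 and lowered 1 in knockout cells. ZFP36 (tristetraprolin), a substrate of MAPKAPK2, rose by 0.46 and 0.49 (adjusted p = 0.00777 and 0.00528). Its knockout differences, -0.19 in DMSO and -0.15 in JQ1, did not pass (adjusted p = 0.443 and 0.526). Over these 6 lists together, 48 of 84 tested genes passed for JQ1 in wild-type cells (31 higher, 17 lower) and 45 in knockout cells (27 higher, 18 lower), against 33.1% and 34.4% of all genes. The knockout gave 12 in DMSO and 9 in JQ1, against 7.92% and 8.57% of all genes. The lists were chosen with earlier results of these data known, so these counts are a description of the lists. None of the 84 passed for the difference of the JQ1 responses in the edgeR test, where 6 had an unadjusted p under 0.05, and ADORA1 passed with DESeq2 (adjusted p = 0.0413) and without a filter on low counts (adjusted p = 0.0474).

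The genes whose levels followed ICAM1 most closely over the 12 libraries, out of 11250 whose mean reached 5 CPM, were TNFAIP2 (Pearson r = 0.986), FERMT1 (r = 0.985) and PDLIM1 (r = 0.984). TNFAIP2 went from 16.4 ± 0.391 to 7.48 ± 0.364 CPM with JQ1 in wild-type cells and from 11.8 ± 0.464 to 4.15 ± 0.764 CPM (SD, n = 3) in knockout cells, the same order of groups as ICAM1. NT5E was followed most closely by H3F3A (r = 0.986), ALCAM (r = 0.984) and GLCE (r = 0.984). For CD274 the closest of 11251 genes were C5orf34 (r = 0.938), PRKG1 (r = 0.915) and TAF1A (r = 0.906), and for PDCD1LG2 SLC25A15 (r = 0.910), ZNF615 (r = 0.880) and ZNF710 (r = 0.851). These correlations were picked as the highest, all points share the same 12 libraries and 4 groups, and they are given as a description.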

How the data were processed

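RNA-seq of A375 cells was measured in 12 libraries, 3 in each of 4 groups, grouped by the labels. The deposited files are 1 table of the authors' estimated counts by gene symbol (52.8% of the values of genes counted in any library are not whole) and 1 normalised table; kallisto, DESeq2, Trim Galore, cutadapt, FastQC, MultiQC and build GRCh38.p10 are named in the submitters' processing notes, with versions not given in the sources used here. The deposited normalised signal equals the estimated count divided by a factor for each gene and library. These factors, called the authors' factors, were inferred from the ratio of the 2 tables, and no label states the step. Estimated counts were rounded to whole numbers. edgeR 4.0.16 (R 4.3.3) was used with filterByExpr, TMM scaling, one fit of all 12 libraries and the quasi-likelihood test; Benjamini-Hochberg adjustment ran over all 21698 genes tested, with a threshold of 0.05. The script was tested on simulated data. CPM were computed over TMM-scaled library sizes; for correlations they were put on the log2 scale after adding a prior count of 2. Depth was 25316565 to 34594025 counts per library, and intervals cover the spread between libraries. Alternatives were library totals, RLE factors, the authors' factors, DESeq2 1.42.0, no filter, only the groups compared, a replicate block, limma 3.58.1 on log2 (signal + 1) and leaving out each library. Named list genes were up to 3 per list and comparison of 2 groups with the smallest adjusted p; the genes most like CD274, PDCD1LG2, NT5E and ICAM1 were the 3 with the highest Pearson r. The members and lists were chosen with earlier results of these data known. Gene positions are from GENCODE v29 (GRCh38) and promoter sequences from RefSeq, whose gene starts can differ from those of GENCODE.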

Additional observations from a re-analysis of the deposited data

Results flagged for a closer look

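The JQ1 response of ICAM1, taken as a ratio, was different in the 2 genotypes by a direct test of that difference. Its group means went from 54.5 to 23.5 CPM in wild-type cells and from 37.8 to 8.51 CPM in knockout cells. Whether the falls in CPM differ was not tested. On the log2 scale the response in knockout cells minus that in wild-type cells was -0.93 (edgeR quasi-likelihood test, adjusted p = 0.0149), from a response of -1.21 in wild-type and -2.14 in knockout cells, with all 3 JQ1 libraries below all 3 DMSO libraries in both genotypes. The call was lost without wild-type JQ1 replicate 1 (adjusted p = 0.0579), wild-type JQ1 replicate 2 (adjusted p = 0.0569) or knockout DMSO replicate 3 (adjusted p = 0.0532). The summed markers of other cell types reached at most 4.28 CPM for leukocytes, 7.12 for keratinocytes, 13.2 for fibroblasts and 2.35 for endothelial cells in any library.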

How the results depend on the processing

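The 45 values of the members (9 genes in 5 comparisons) were recomputed under 20 alternatives, which gave 887 values: 836 kept their direction and their side of the threshold, 26 kept the direction and lost the call, 2 gained a call and 23 changed sign. The number of members called for the knockout in DMSO was 2 and became 1 with the authors' factors and with limma on the deposited signal, and 1 to 2 when a library was left out. For the knockout in JQ1 it was 3, became 1 with only the groups compared and was 2 to 3 when a library was left out, and for the difference of the JQ1 responses it was 1 and ranged from 0 to 1 when a library was left out. The causes were not tested.

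All sign changes were in values that had not passed. With library totals only, which move the median of all genes to -0.16 in wild-type and -0.12 in knockout cells under JQ1, the wild-type JQ1 response was -0.0485 for CD47 and -0.0876 for NECTIN2. The knockout difference of PVR in DMSO was 0.0102 with RLE factors and with DESeq2, and the difference of the NT5E responses was -0.0069 with the authors' factors and -0.0079 with limma. When a library was left out, NECTIN2 ranged from -0.0208 to 0.134 for JQ1 in wild-type cells, from -0.342 to 0.0203 for JQ1 in knockout cells, from -0.0077 to 0.161 for the knockout in DMSO and from -0.319 to 0.0435 for the knockout in JQ1. LGALS9 ranged from -0.0196 to 0.77 for JQ1 in knockout cells and from -0.521 to 0.104 for the knockout in DMSO, PVR from -0.0496 to 0.0413 for the knockout in DMSO and CD276 from -0.349 to 0.0082 for the knockout in JQ1. The difference of the JQ1 responses ranged from -0.325 to 0.18 for CD274, from -0.0108 to 0.101 for NT5E and from -0.0637 to 0.0603 for MICA.

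The counts showed no pairing of libraries by replicate number. The deviations of 18 same-number pairs correlated at -0.115 to 0.0786, and 1 of 12 libraries correlated best with its own number. Weak correlations cannot tell whether libraries of the same number were prepared together. With a replicate block the knockout difference of NT5E in JQ1 was -0.23 and did not pass (adjusted p = 0.0545), and no other call of a member changed.

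Counts over all genes that moved by more than 1.5 times were those for the knockout in DMSO (1718 genes, 2619 with only the groups compared, 1092 to 2650 when a library was left out), for the knockout in JQ1 (1860, 922 with only the groups compared, 1223 without wild-type JQ1 replicate 2) and for the difference of the responses (29, 130 with DESeq2, 236 without a filter, 8 to 88 when a library was left out). Over the 6 lists the knockout counts of 12 and 9 ranged from 6 to 19 and from 5 to 14 over the alternatives, and those of the mRNA decay list for JQ1, 3 and 2, from 1 to 6 and from 1 to 4. The count of the nectin, NKG2D ligand and adhesion list for JQ1 in wild-type cells went from 5 to 3 without wild-type DMSO replicate 1, and that of the protein handling list for JQ1 in knockout cells from 9 to 5 with only the groups compared. Depth limits CD274, PDCD1LG2 and LGALS9, at 0 to 52 counts per library.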

Other observations

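Receptors that immune cells use to read these ligands were mostly at background in A375 cells: 10 of 14 were under 1 CPM in every library. The exceptions include CD96, a receptor of PVR known from T cells and natural killer cells, and SIRPA, the receptor of CD47; both were chosen for mention after their values were seen. CD96 went from 171 ± 8.47 to 92.7 ± 6.47 CPM with JQ1 in wild-type cells and from 194 ± 7.03 to 106 ± 20.9 CPM (SD, n = 3) in knockout cells. It fell by 0.88 on the log2 scale under JQ1 in both genotypes (edgeR, adjusted p = 2.29e-05 in wild-type and 2e-05 in knockout cells). SIRPA went from 20.4 ± 0.465 to 12.9 ± 1.73 CPM and from 22.0 ± 2.90 to 16.2 ± 2.48 CPM (SD, n = 3), and fell under JQ1 by 0.67 and 0.44 (adjusted p = 0.000878 and 0.0137). The summed leukocyte markers were at 1.85 to 4.28 CPM in the same libraries. Over the 14 receptors, 7 were tested, and JQ1 raised 0 and lowered 3 in each genotype. Over all genes tested, JQ1 raised 16.9% and lowered 16.2% in wild-type cells and raised 16.7% and lowered 17.8% in knockout cells. The third receptor lowered was KLRK1, which encodes NKG2D, at 0.411 to 1.19 CPM.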
